A study of Homo sapiens with 22 samples.

Results

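AMOT, AMOTL1, AMOTL2, LATS2, YAP1, WWTR1, TEAD1, TEAD4, CYR61 and CTGF are 10 genes of the angiomotin family and the Hippo-YAP pathway. They were listed by name, and all 10 were found among the 48648 uniquely named genes of a human RNA-seq table. All 10 were also among the 21325 genes tested, which needed a log2 value above 3, the detection floor, in at least 4 of 22 libraries. AMOT was chosen by its high log2 values in 1 of the groups, T164A, and the other 9 genes follow from the pathway. Its values there are therefore a description, and no test is given for AMOT in any comparison with T164A.

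The Hippo pathway is a kinase cascade that restrains growth in epithelia. The kinases STK3 and STK4 activate LATS1 and LATS2, which phosphorylate the co-activators YAP1 and TAZ (encoded by WWTR1) and hold them in the cytoplasm. Unphosphorylated YAP1 and TAZ enter the nucleus and bind TEAD transcription factors, which switch on genes such as CYR61 and CTGF. Angiomotins are scaffold proteins of tight junctions and the actin cytoskeleton that bind YAP1 and TAZ. AMOTL2 and LATS2 are also transcribed in response to YAP1 and TAZ, as negative feedback.

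RWPE1, named in every title, is a line of immortalized epithelial cells of the human prostate. All titles also name paraquat, a compound that generates superoxide. The cells carried the NKX3.1 form T164A (4 libraries), the form R52C (6), wild-type NKX3.1 (6) or the empty vector, described as an altered pTRIPZ (Vector, 6). NKX3.1 is a homeobox transcription factor that luminal cells of the prostate make. No untreated library was present, and the treatment tag was missing from 3 T164A libraries. Nothing in the labels tells whether replicates were grown as separate cultures, so p-values measure a spread that may be technical. The depth in reads is unknown, since the table holds normalized values.

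Markers of cell type differed between the groups. Among 11 basal epithelial markers, TP63, DSG3 and KRT17 were under the floor on average in R52C, and the summed log2 level of the list was 12.67 to 12.83 there, against 17.14 to 17.23 in T164A, 17.49 to 17.64 in NKX3.1 and 17.81 to 18.10 in Vector, where all 11 were above the floor. The 11 prostate luminal markers summed to 10.42 to 10.48 in T164A, 17.91 to 17.93 in R52C, 16.00 to 16.27 in NKX3.1 and 13.53 to 14.62 in Vector. KLK3, KLK2 and TMPRSS2 were under the floor in all 4 T164A libraries, and KLK4 was so on average. All 7 markers chosen for the embryonic kidney line HEK293 were above the floor in T164A, where they summed to 14.26 to 14.31, and 1, 3 and 4 were above it in R52C (6.10 to 6.47), NKX3.1 (7.30 to 7.52) and Vector (7.41 to 8.22). The names T164A and R52C therefore stand for the libraries labelled so, in every direction given below. Of the 7 fibroblast markers, 4 were above the floor on average in T164A (COL1A1, COL3A1, LUM and PDGFRA) and only COL1A1 in each of R52C, NKX3.1 and Vector, while COL1A2 and DCN were under it in every library. The list summed to 9.56 to 9.59 in T164A, 8.01 to 8.34 in R52C, 10.48 to 10.68 in NKX3.1 and 10.36 to 10.92 in Vector. Of the 4 endothelial markers in the table, 1 was above the floor in each group, KDR in T164A and VWF in the others, and the list summed to 4.30 to 4.66 in T164A, 7.86 to 8.16 in R52C, 6.03 to 6.72 in NKX3.1 and 4.01 to 5.54 in Vector. Of the immune markers, CD68 was above it in every group and CD14 in T164A, NKX3.1 and Vector. The immune list summed to 8.44 to 8.64 in T164A, 6.91 to 7.06 in R52C, 9.07 to 9.31 in NKX3.1 and 9.15 to 9.40 in Vector. Markers of other cell types thus differ between the groups compared below, and their part in the results was not tested. In bulk RNA, fewer cells of a type and less RNA per cell cannot be told apart.

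The promoters of the genes that moved together are shown first. RefSeq windows (GRCh38.p14, 250 bases before to 50 after the start) were available for 7 of the 10 genes, 9 windows in all. The core of the TEAD binding motif, GGAATG or CATTCC on the other strand, was searched for on both strands. It stood in 4 windows, those of CTGF, YAP1, LATS2 and 1 of the AMOTL2 windows, and 14.0% of all 35116 human windows held it. CTGF had it 3 times, at -169, -104 and -95 from the start, which 0.128% of all windows matched or exceeded. A core motif of NKX3.1, TAAGTA, was in 0 of the 9 windows and in 5.84% of all windows. A match is a description of the letters and not of a bound site. The windows of CTGF (chr6:131951323-131951622, minus strand), AMOTL2 (chr3:134374398-134374697, minus strand) and LATS2 (chr13:21061537-21061836, minus strand) are printed as examples from genes that fell in R52C and hold a match. That of AMOTL1 (chr11:94768106-94768405, plus strand) is printed as that of a gene that fell more than any of them on the fitted scale and holds no match. The WWTR1 windows, not printed here, hold none either. YAP1 also fell in R52C, and its window, likewise not printed, holds a match at -162. That of AMOT (chrX:112840782-112841081, minus strand), which holds no match, is printed because AMOT rose in R52C. Capitals mark the TEAD core, on the gene's strand in CTGF and LATS2 and on the opposite strand in AMOTL2.
CTGF: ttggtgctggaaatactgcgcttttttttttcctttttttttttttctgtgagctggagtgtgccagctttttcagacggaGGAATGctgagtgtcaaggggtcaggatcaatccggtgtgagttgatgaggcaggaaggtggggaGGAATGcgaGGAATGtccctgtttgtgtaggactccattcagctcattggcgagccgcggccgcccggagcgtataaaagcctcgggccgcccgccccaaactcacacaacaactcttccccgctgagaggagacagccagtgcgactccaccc
AMOTL2: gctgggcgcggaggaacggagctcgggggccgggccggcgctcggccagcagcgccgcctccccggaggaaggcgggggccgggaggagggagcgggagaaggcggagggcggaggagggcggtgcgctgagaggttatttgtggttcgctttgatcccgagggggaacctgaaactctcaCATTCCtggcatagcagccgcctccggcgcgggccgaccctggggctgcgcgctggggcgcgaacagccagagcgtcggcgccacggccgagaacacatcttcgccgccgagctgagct
LATS2: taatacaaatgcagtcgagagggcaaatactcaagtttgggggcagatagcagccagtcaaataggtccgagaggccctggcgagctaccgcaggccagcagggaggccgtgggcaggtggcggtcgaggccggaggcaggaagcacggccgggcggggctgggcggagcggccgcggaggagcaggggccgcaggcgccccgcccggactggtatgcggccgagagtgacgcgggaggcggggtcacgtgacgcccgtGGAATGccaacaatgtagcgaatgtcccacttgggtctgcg
AMOTL1: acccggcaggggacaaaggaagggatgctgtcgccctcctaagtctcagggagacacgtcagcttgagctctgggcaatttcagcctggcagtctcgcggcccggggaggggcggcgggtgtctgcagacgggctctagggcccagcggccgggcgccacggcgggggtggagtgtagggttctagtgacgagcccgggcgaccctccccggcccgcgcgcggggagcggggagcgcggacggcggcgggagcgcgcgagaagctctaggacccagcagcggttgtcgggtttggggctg
AMOT: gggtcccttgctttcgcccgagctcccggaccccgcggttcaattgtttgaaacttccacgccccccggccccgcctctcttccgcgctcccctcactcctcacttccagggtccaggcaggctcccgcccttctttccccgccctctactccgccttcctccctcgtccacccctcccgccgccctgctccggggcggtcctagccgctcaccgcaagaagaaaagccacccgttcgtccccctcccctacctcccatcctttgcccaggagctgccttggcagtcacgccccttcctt

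The 3 angiomotins moved in different directions. AMOT, the founding member, first described as a protein that binds angiostatin, stood at 14.22, 14.21, 14.18 and 14.21 in the T164A libraries. In R52C it ranged from 8.41 through a median of 8.51 to 8.74, in NKX3.1 from 6.67 through 6.94 to 7.14, and in Vector from 6.15 through 6.66 to 6.93. T164A and R52C each lay apart from every other group, whereas NKX3.1 and Vector overlapped. The T164A mean exceeded the Vector mean by 7.58 on the log2 scale, which is 192-fold and the difference that chose the gene. It ranked 52 from the top of 21325 genes in that comparison.

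AMOT also rose outside T164A. In R52C it was 1.91 above Vector (SE 0.096, limma adjusted p = 2.30e-16, n = 6 each), or 3.77-fold, and 1.59 above NKX3.1 (SE 0.096, adjusted p = 2.00e-14). In NKX3.1 it was 0.32 above Vector (SE 0.096, limma adjusted p = 0.00770). That smaller rise did not hold against Vector replicates 4 to 6 alone, where it was 0.11 (adjusted p = 0.303), or after quantile normalization, where it was 0.24 (adjusted p = 0.0584).

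AMOTL1, a paralog of AMOT that also binds YAP1, was far lower in R52C than elsewhere. It stood at 4.61 to 5.41 there (median 4.93). In T164A it was 11.57, 11.58, 11.62 and 11.61, in NKX3.1 11.34 to 11.52 (median 11.45) and in Vector 11.63 to 11.77 (median 11.69). The R52C libraries were all far below the rest, and the other groups lay close together without overlap. R52C fell by 6.76 against Vector (SE 0.076, limma adjusted p = 1.53e-30), a 108-fold difference that ranked 364 from the bottom of the 21325 genes. AMOTL1 fell in NKX3.1 by 0.25 against Vector (SE 0.076, adjusted p = 0.0108), and by 0.22 (adjusted p = 0.0823) against Vector replicates 1 to 3 alone. T164A differed from Vector by -0.10 (95% interval -0.28 to 0.07, limma adjusted p = 0.275), although no T164A library reached a Vector library. With all libraries brought to an equal median that difference was -0.28 and called (adjusted p = 0.00484). At the unchanged -0.10 it was also called with only these 2 groups in the fit (limma adjusted p = 0.0188). The same held with R52C replicates 1 to 3 only (adjusted p = 0.0275).

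AMOTL2, both a scaffold and a transcriptional target of YAP1 and TAZ, fell in all 3 engineered groups. Its values were 10.95, 11.16, 10.85 and 10.97 in T164A, 7.53 to 7.61 in R52C (median 7.56), 11.02 to 11.11 in NKX3.1 (median 11.07), and 11.36, 11.42, 11.45, 11.94, 11.97 and 11.93 in Vector. No library of the other groups reached the lowest Vector library, and T164A overlapped with NKX3.1. The fall against Vector was 0.70 in T164A (SE 0.094, limma adjusted p = 1.67e-07), 4.12 in R52C (SE 0.084, adjusted p = 4.26e-25) and 0.61 in NKX3.1 (SE 0.084, adjusted p = 1.32e-06). R52C was thus low in AMOTL1 and AMOTL2 and raised in AMOT, and T164A was low in AMOTL2 beside its high AMOT. On the linear scale the 3 angiomotins summed to a log2 level of 14.52 to 14.57 in T164A, 9.12 to 9.33 in R52C, 12.22 to 12.37 in NKX3.1 and 12.56 to 12.88 in Vector.

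**Figure D1:**
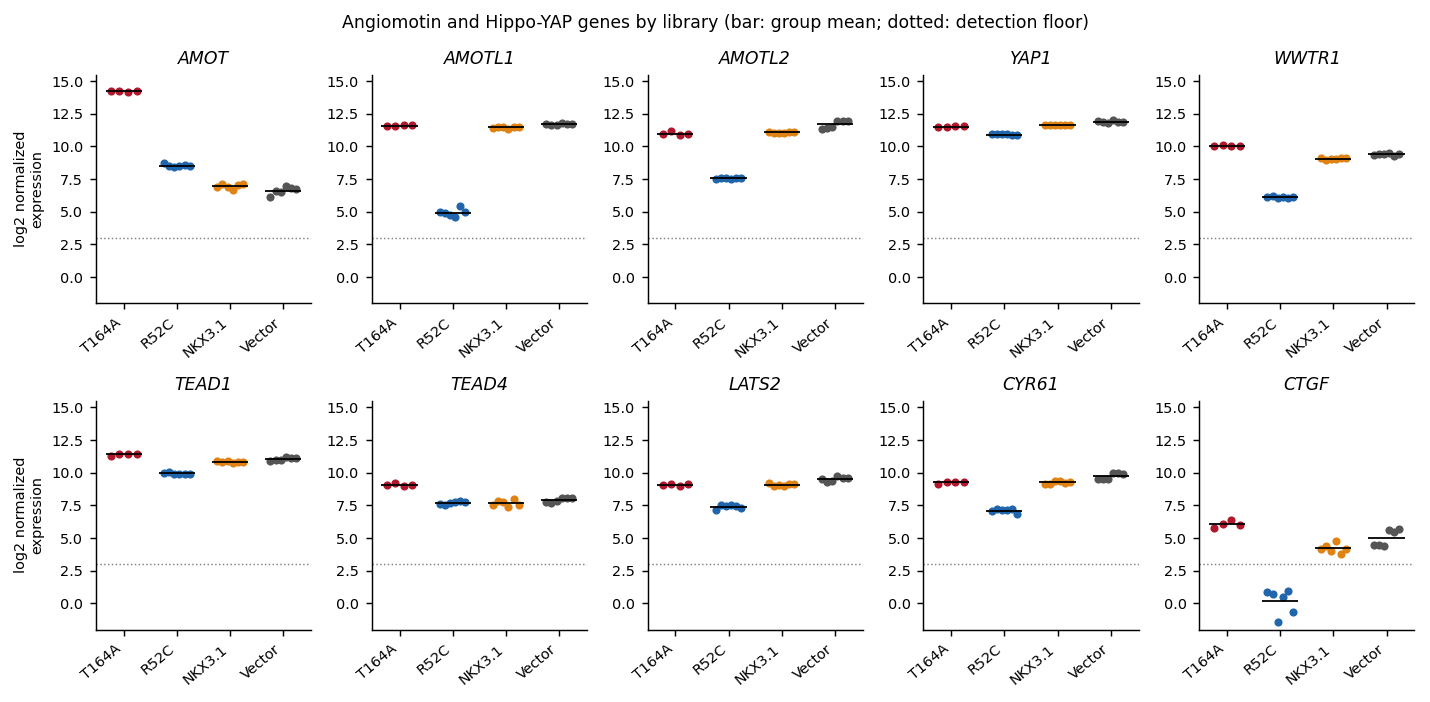
Level of each of the 10 genes in every library (y axis: log2 normalized expression, 1 panel per gene). Points are libraries, bars are group means and the dotted line is the detection floor of 3. AMOT stands at 14.18 to 14.22 in T164A, and the R52C libraries are lowest in every panel but those of AMOT and TEAD4, with CTGF under the floor.

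Over the whole set, R52C against Vector gave 1 gene higher (AMOT) and 9 lower, where 42.2% and 41.6% of all tested genes were called in those directions and 83.8% in all. NKX3.1 against Vector gave 1 higher (AMOT) and 8 lower of 10, with 21.6% of all genes called higher, 19.4% lower and 41% in all. T164A against Vector gave 4 higher and 4 lower of the 9 genes other than AMOT, with 40.6% of all genes called higher, 41.6% lower and 82.2% in all. The median change of the genes tested was -0.10 in T164A, -2.38 in R52C and -0.29 in NKX3.1, beside -0.04, 0.01 and -0.01 over all genes. A call as such is therefore the usual case in the comparisons with T164A and R52C, and the sizes carry the description. These comparisons share their Vector libraries. The groups did not overlap for 9 of the 9 genes other than AMOT in T164A, 9 of 10 in R52C and 7 of 10 in NKX3.1 against Vector, where 71.1%, 70.8% and 23.9% of all genes did not.

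**Figure D2:**
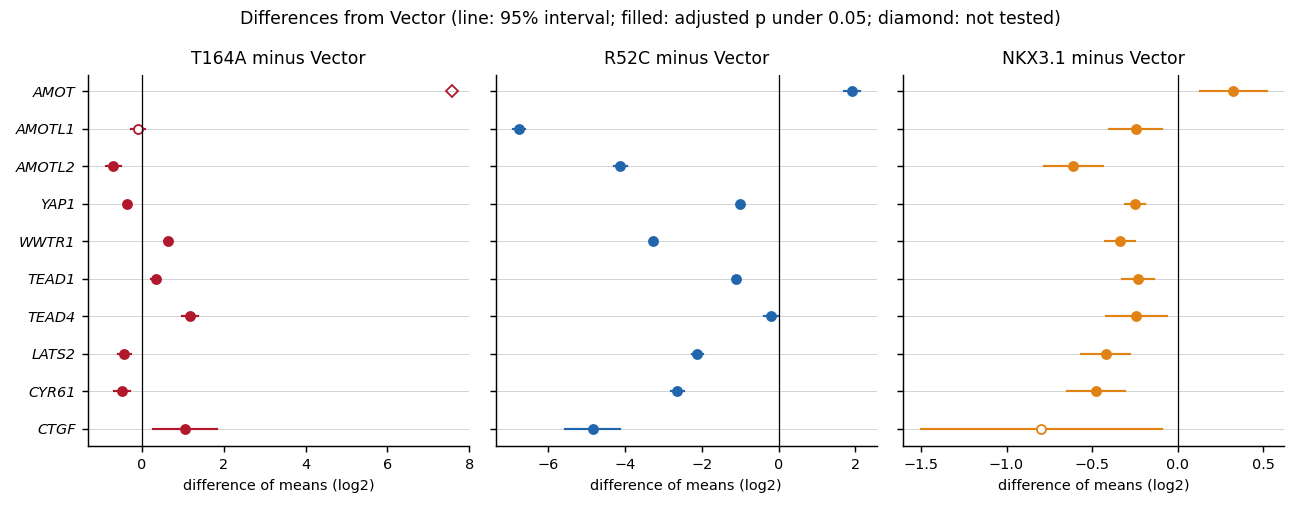
Difference of each gene from Vector (x axis: difference of mean log2 expression) in T164A, R52C and NKX3.1, with x axes of different ranges. Lines are 95% intervals, filled points passed an adjusted p of 0.05, open circles did not, and the diamond is AMOT in T164A, which was not tested. AMOT is the only point right of 0 in R52C and in NKX3.1, and the CTGF point in R52C rests on libraries under the floor.

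LATS2, the kinase that phosphorylates YAP1 and TAZ, was lowest in R52C. It stood at 9.09, 9.16, 8.98 and 9.11 in T164A, at 7.11 to 7.51 in R52C (median 7.45), at 8.96 to 9.24 in NKX3.1 (median 9.10) and at 9.33 to 9.73 in Vector (median 9.53). All 3 engineered groups lay below Vector without overlap, and T164A and NKX3.1 overlapped. LATS2 fell by 0.43 in T164A (SE 0.077, limma adjusted p = 1.53e-05), by 2.12 in R52C (SE 0.069, adjusted p = 1.39e-20) and by 0.42 in NKX3.1 (SE 0.069, adjusted p = 1.72e-05), each against Vector.

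The kinase core was mixed. In R52C, 2 of 7 core genes rose and 4 fell against Vector, where 42.2% of all genes rose and 41.6% fell. STK4, an upstream kinase, fell by 1.49 (adjusted p = 2.20e-24, limma), and MOB1A, an adaptor that activates LATS kinases, fell by 1.05 (adjusted p = 2.85e-17), whereas its paralog MOB1B rose by 0.77 (adjusted p = 1.50e-15). LATS1, the paralog of LATS2, rose by 0.33 there (adjusted p = 1.52e-09, chosen as the direct counterpart of LATS2). In T164A, 4 core genes rose and 3 fell (40.6% and 41.6% of all genes), and 2 rose and 3 fell with all libraries at an equal median. STK3 fell by 0.92 (adjusted p = 6.49e-14), while LATS1 rose by 0.40 (adjusted p = 4.39e-10) and the scaffold SAV1 by 0.61 (adjusted p = 1.71e-09). In NKX3.1, 0 rose and 4 fell (21.6% and 19.4% of all genes), with MOB1A down by 0.31 (adjusted p = 6.98e-06) and STK3 by 0.25 (adjusted p = 0.000293). The median change of the list was 0.13 in T164A, -0.52 in R52C and -0.12 in NKX3.1.

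Of 15 upstream regulators of the cascade, 7 rose and 8 fell in R52C against Vector (median -0.34), shares close to the 42.2% and 41.6% of all genes. FRMD6, a membrane-linked activator of the cascade, fell by 6.14 (SE 0.057, limma adjusted p = 3.12e-32), to 5.16 in R52C against 11.30 in Vector. AJUBA, a LIM protein that restrains LATS kinases, fell by 2.34 (adjusted p = 2.81e-28), and PTPN14, a phosphatase that binds YAP1, fell by 3.17 (adjusted p = 1.80e-22). NF2, which encodes the tumour suppressor merlin, rose by 1.73 in R52C (SE 0.046, adjusted p = 1.20e-22), by 1.70 in T164A (SE 0.051, adjusted p = 5.73e-21) and by 0.60 in NKX3.1 (SE 0.046, adjusted p = 4.78e-11). T164A had 10 of the 15 higher and 5 lower (median 0.38), where 40.6% and 41.6% of all genes were, with FRMD6 down by 1.43 (adjusted p = 3.07e-17), the kinase MAP4K4 up by 0.78 (adjusted p = 2.25e-15) and the LIM protein LIMD1 up by 0.84 (adjusted p = 3.33e-14). With all libraries at an equal median the T164A counts were 8 higher and 5 lower (median 0.21). Against Vector replicates 4 to 6 alone they were 9 and 5. In NKX3.1 4 rose, 3 fell and 8 did not pass (median -0.01), where 21.6% of all genes rose and 19.4% fell. With all libraries at an equal median 4 rose and 7 fell, and against Vector replicates 1 to 3 alone 6 rose and 2 fell.

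Of the 2 co-activators, WWTR1 was the more affected in R52C. Its values were 10.04, 10.11, 10.01 and 10.01 in T164A, 6.02 to 6.23 in R52C (median 6.13), 8.99 to 9.11 in NKX3.1 (median 9.06) and 9.29 to 9.48 in Vector (median 9.41). The 4 groups did not overlap, and their order was T164A, Vector, NKX3.1, R52C. Against Vector, WWTR1 rose by 0.65 in T164A (SE 0.048, limma adjusted p = 2.06e-12), fell by 3.27 in R52C (SE 0.043, adjusted p = 3.64e-29) and fell by 0.34 in NKX3.1 (SE 0.043, adjusted p = 4.35e-07). The R52C difference was 9.64-fold on the linear scale.

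YAP1 stayed within a narrower range. It stood at 11.49, 11.46, 11.58 and 11.54 in T164A, at 10.84 to 10.93 in R52C (median 10.91), at 11.61 to 11.67 in NKX3.1 (median 11.63) and at 11.83 to 11.99 in Vector (median 11.87). No neighbouring groups overlapped, in the order Vector, NKX3.1, T164A, R52C. YAP1 fell against Vector by 0.37 in T164A (SE 0.032, limma adjusted p = 3.87e-11), by 0.99 in R52C (SE 0.028, adjusted p = 8.50e-22) and by 0.25 in NKX3.1 (SE 0.028, adjusted p = 7.04e-08). In R52C that is a 1.99-fold difference. WWTR1 and YAP1 thus went in opposite directions in T164A and both fell in R52C and NKX3.1.

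The TEAD factors are the DNA-binding partners of YAP1 and TAZ. TEAD1 stood at 11.30, 11.40, 11.47 and 11.41 in T164A, at 9.92 to 10.06 in R52C (median 9.93), at 10.73 to 10.90 in NKX3.1 (median 10.83) and at 10.92 to 11.24 in Vector (median 11.05), with no overlap between neighbours. It rose by 0.34 in T164A (SE 0.051, limma adjusted p = 1.01e-06), fell by 1.10 in R52C (SE 0.045, adjusted p = 2.93e-18) and fell by 0.23 in NKX3.1 (SE 0.045, adjusted p = 0.000170), each against Vector. The paralogs TEAD2 and TEAD3, taken from the pathway list, fell by 1.41 and 2.11 in R52C (adjusted p = 9.05e-19 and 9.12e-27). In T164A TEAD2 rose by 0.64 and TEAD3 fell by 0.997 (adjusted p = 3.69e-10 and 3.52e-18).

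TEAD4 was higher in T164A and hardly separated the other groups. It stood at 9.06, 9.18, 9.01 and 9.06 in T164A, at 7.55 to 7.84 in R52C (median 7.73), at 7.41 to 7.99 in NKX3.1 (median 7.63) and at 7.65 to 8.08 in Vector (median 7.95). T164A lay above all others, and R52C, NKX3.1 and Vector overlapped. TEAD4 rose by 1.17 in T164A against Vector (SE 0.097, limma adjusted p = 1.93e-11). The falls of 0.20 in R52C (SE 0.087, adjusted p = 0.0351) and 0.24 in NKX3.1 (SE 0.087, adjusted p = 0.0272) were lost against Vector replicates 1 to 3 alone (-0.05, adjusted p = 0.655, and -0.09, adjusted p = 0.509). Leaving out Vector replicate 4, 5 or 6 ended both calls, with adjusted p of 0.0785, 0.0888 and 0.0830 in R52C and of 0.0627, 0.0705 and 0.0655 in NKX3.1. Without R52C replicate 1 or 2 the R52C call was lost (adjusted p = 0.0684 and 0.0845), as was the NKX3.1 call without NKX3.1 replicate 1, 4 or 6 (adjusted p = 0.0668, 0.0835 and 0.0673).

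VGLL proteins compete with YAP1 and TAZ for TEAD factors. VGLL4, which represses TEAD targets, rose by 0.91 in R52C against Vector (adjusted p = 3.75e-17, limma). VGLL3 was under the floor in R52C, at least 7.87-fold below Vector (limma adjusted p = 4.83e-21, for the values not raised to the floor). It rose by 1.38 in T164A (adjusted p = 1.16e-07). VGLL1 was under the floor on average in T164A and R52C, at least 2.35-fold below Vector in each. Of the 3 genes, 2 were called in T164A, 3 in R52C and 2 in NKX3.1, where 82.2%, 83.8% and 41% of all genes were called. In NKX3.1, 0 were higher and 1 lower with all libraries at an equal median, whereas 1 was higher and 0 lower against Vector replicates 1 to 3 alone.

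CYR61 and CTGF, secreted matricellular proteins (now CCN1 and CCN2), are the standard readouts of YAP1 and TAZ activity. CYR61 stood at 9.14, 9.32, 9.28 and 9.29 in T164A, at 6.86 to 7.21 in R52C (median 7.16), at 9.10 to 9.40 in NKX3.1 (median 9.27), and at 9.53, 9.50, 9.55, 9.97, 9.96 and 9.91 in Vector. Every library of the engineered groups was below every Vector library, and T164A and NKX3.1 overlapped. CYR61 fell by 0.48 in T164A (SE 0.091, limma adjusted p = 2.96e-05), by 2.64 in R52C (SE 0.082, adjusted p = 4.87e-21) and by 0.48 in NKX3.1 (SE 0.082, adjusted p = 3.04e-05).

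CTGF was detected in every library but those of R52C. It stood at 5.80, 6.08, 6.37 and 6.01 in T164A, at -1.39 to 0.96 in R52C (median 0.57), at 3.75 to 4.80 in NKX3.1 (median 4.15), and at 4.49, 4.45, 4.40, 5.60, 5.45 and 5.66 in Vector. All 6 R52C libraries were under the floor, and NKX3.1 overlapped with Vector. Against the floor, CTGF was at least 4.02-fold lower in R52C than in Vector (limma adjusted p = 4.85e-13, for the values not raised to the floor). It rose by 1.06 in T164A (SE 0.38, adjusted p = 0.0139), a call that ended against Vector replicates 4 to 6 alone (0.49, adjusted p = 0.296). In NKX3.1 the difference of -0.80 did not pass (95% interval for this gene alone -1.50 to -0.09, limma adjusted p = 0.0660). It passed against Vector replicates 4 to 6 (-1.36, adjusted p = 0.00794), and also when values under the floor were raised to it (adjusted p = 0.00314). Leaving out Vector replicate 1, 2 or 3, NKX3.1 replicate 4 or R52C replicate 3 brought it past the threshold as well (adjusted p = 0.0490, 0.0467, 0.0436, 0.0456 and 0.0259). So did equal medians (limma adjusted p = 0.0356), quantile normalization (0.0497), these 2 groups alone in the fit (0.0141) and R52C replicates 4 to 6 only (0.0239). Against Vector replicates 1 to 3 alone the difference was -0.23 and did not pass. CYR61 and CTGF, which fell together in R52C, therefore went in opposite directions in T164A.

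A wider list of 22 YAP and TAZ targets holds CYR61, CTGF, AMOTL2 and LATS2. ANKRD1 was too low to test. All 21 tested targets fell in R52C against Vector (median -4.03, or -2.39 with genes under the floor at their bounds), where 41.6% of all genes fell. MYOF, a membrane repair protein, fell by 8.50 (SE 0.13, limma adjusted p = 5.92e-28), to 4.83 in R52C against 13.33 in Vector. CRIM1, a transmembrane regulator of BMP signals, fell by 5.42 (adjusted p = 2.82e-27). The receptor kinase AXL was at least 79.5-fold lower (limma adjusted p = 1.02e-23, for the values not raised to the floor). Of the 21, 8 were under the floor in some or all R52C libraries and enter as bounds. DOCK5, the least changed, fell by 0.25 (adjusted p = 8.17e-06).

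In T164A 8 of the 21 were higher, 10 lower and 3 not called against Vector (median -0.19), shares close to the 40.6% and 41.6% of all genes. IGFBP3, an insulin-like growth factor binding protein, fell by 4.50 (SE 0.20, limma adjusted p = 3.84e-17), and GADD45A, a growth arrest gene, fell by 0.99 (adjusted p = 1.42e-14). FOXF2, a forkhead factor, rose by 3.92 (SE 0.26, adjusted p = 1.96e-13). The kinase gene NUAK2 fell by 0.68 (adjusted p = 4.77e-11). In NKX3.1 13 of the 21 fell, 0 rose and 8 did not pass (median -0.42), where 19.4% of all genes fell. GADD45A was down by 0.44 there (adjusted p = 1.23e-07), beside AMOTL2, LATS2 and CYR61 above. The number of targets that fell in NKX3.1 was 9 against Vector replicates 1 to 3 alone, 12 against replicates 4 to 6 alone and 16 with every library at the same median.

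**Figure D3:**
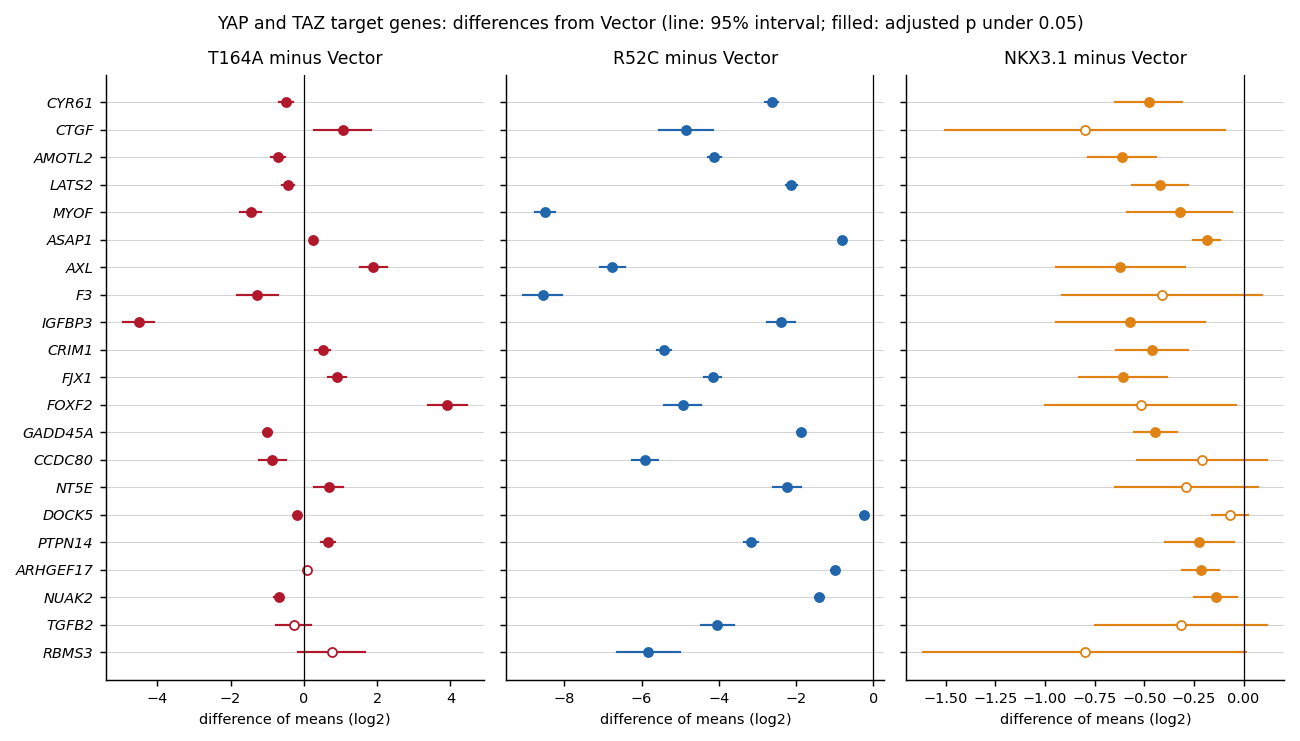
Difference from Vector of the 21 tested YAP and TAZ targets (x axis: difference of mean log2 expression, with different ranges) in T164A, R52C and NKX3.1. Lines are 95% intervals and filled points passed an adjusted p of 0.05. All 21 points are left of 0 in R52C, where 8 rest on libraries under the floor, all 21 in NKX3.1 with 13 filled, and they lie on both sides in T164A.

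Angiomotins bind apical polarity proteins, and 8 of these were tested. In R52C 4 rose, 2 fell and 2 did not pass against Vector (median 0.11), where 42.2% of all genes rose and 41.6% fell. With all libraries at an equal median 6 rose and 2 fell. PARD3, a polarity scaffold, fell by 3.12 (limma adjusted p = 5.88e-25). TJP1, a tight junction scaffold, and MPP5, a scaffold of apical polarity, rose by 0.49 and 0.48 (adjusted p = 7.98e-14 and 2.11e-12). In T164A 1 rose and 6 fell (median -0.45), where 40.6% and 41.6% of all genes did, among them INADL (-1.33, adjusted p = 6.50e-21) and CRB3 (-1.66, adjusted p = 1.38e-16). In NKX3.1 1 rose and 3 fell (median -0.02), where 21.6% and 19.4% of all genes did, with PARD3 down by 0.30 (adjusted p = 0.000490). These counts were 0 and 4 with all libraries at an equal median and 3 and 2 after quantile normalization.

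The engineered groups were also compared with each other. T164A against NKX3.1 gave 4 genes higher and 1 lower of the 9 tested, where 39.6% of all genes were higher, 42.3% lower and 81.9% called. The groups did not overlap for 6 of these 9 genes, as for 74.4% of all genes. CTGF was higher in T164A by 1.85 (SE 0.38, limma adjusted p = 9.18e-05), TEAD4 by 1.41 (SE 0.097, adjusted p = 4.18e-13), WWTR1 by 0.98 (SE 0.048, adjusted p = 2.76e-16) and TEAD1 by 0.57 (SE 0.051, adjusted p = 8.71e-11). YAP1 was lower by 0.12 (adjusted p = 0.00120). LATS2 and CYR61 differed by -0.0067 (95% interval -0.17 to 0.15) and -0.0047 (95% interval -0.19 to 0.18), AMOTL1 by 0.15 (-0.03 to 0.32) and AMOTL2 by -0.09 (-0.28 to 0.11), and none of these 4 passed. AMOTL1 passed without R52C replicate 5 (adjusted p = 0.0172), with R52C replicates 1 to 3 only (adjusted p = 0.00241) and with these 2 groups alone in the fit (adjusted p = 0.000487). AMOTL2 passed after quantile normalization (-0.19, adjusted p = 0.0486).

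R52C against NKX3.1 gave 1 gene higher, AMOT, and 8 lower of 10, where 40.9% of all genes were higher, 39.2% lower and 80.1% called. The groups did not overlap for 9 of the 10, as for 68.6% of all genes. AMOTL1 was lower by 6.51 (SE 0.076, limma adjusted p = 4.40e-30), AMOTL2 by 3.51 (SE 0.084, adjusted p = 2.43e-23) and WWTR1 by 2.93 (SE 0.043, adjusted p = 5.50e-28). TEAD4 differed by 0.04 (95% interval -0.14 to 0.22, adjusted p = 0.672). R52C against T164A gave all 9 tested genes lower, from YAP1 by 0.62 (adjusted p = 4.43e-16) to AMOTL1 by 6.65 (SE 0.085, adjusted p = 4.43e-29), where 38.5% of all genes were higher, 45.2% lower and 83.8% called. All 9 had groups that did not overlap, as did 78.1% of all genes. Of the 21 targets, 19 were lower in R52C than in T164A and 1, IGFBP3, was higher, by 2.11 (SE 0.20, adjusted p = 2.93e-10).

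The 6 Vector libraries did not form 1 cloud in these genes. Replicates are numbered by accession, the labels name no batch, and the split was known from earlier results of these data. In replicates 4 to 6, 7 of the 10 genes were higher than in every one of replicates 1 to 3 and 0 were lower, where 19.7% of all tested genes were higher and 14.3% lower in that way. CTGF averaged 5.57 in replicates 4 to 6 and 4.44 in replicates 1 to 3. AMOTL2 averaged 11.95 and 11.41, AMOT 6.84 and 6.41, and CYR61 9.95 and 9.53 in the same order. AMOTL1, YAP1 and WWTR1 overlapped. Of the 21 targets, 15 were higher in replicates 4 to 6 and 0 lower, and so were 8 of the 11 basal markers, while 0 of the 11 luminal markers separated. The R52C libraries also split, though less in these genes. In R52C replicates 4 to 6 against 1 to 3, 1 of the 10 genes (TEAD4) was higher and 0 lower, where 8.5% of all genes were higher and 7.25% lower. Of the 21 targets, 2 were higher and 7 lower, and of the 11 basal markers 10 were lower, with a median difference of -1.74. KRT5, a basal keratin, averaged 1.29 in replicates 4 to 6 and 6.90 in replicates 1 to 3.

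**Figure D4:**
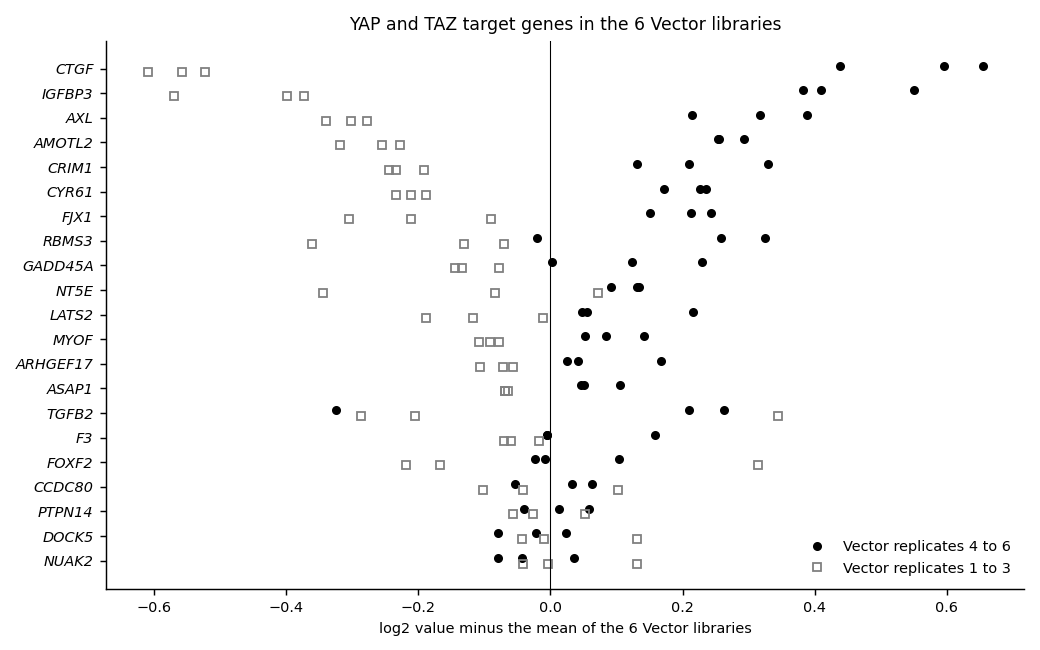
The 21 tested targets in the 6 Vector libraries (x axis: log2 value minus the mean of the 6 libraries, 1 row per gene). Filled points are replicates 4 to 6 and open squares are replicates 1 to 3. In 15 genes every filled point lies right of every square, most widely in CTGF.

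On average, NKX3.1 lay between Vector and R52C in 9 of the 10 genes, TEAD4 being the exception. The share of all tested genes that lay so was not counted, so this may be the usual case. On the linear scale NKX3.1 stood 8.86% (AMOT) to 46.9% (CTGF) of the way from Vector to R52C, with a median of 32.0%. The 11 luminal markers stood at 17.2% to 24.7%, with a median of 20.4%. Taken from Vector replicates 1 to 3 alone, the 9 genes stood at 13.4% to 29.5% (median 20.5%). From replicates 4 to 6 alone they stood at 3.77% to 61.7% (median 36.3%), whereas the luminal medians were 20.4% in each case. These are positions of means, with no test.

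The genes whose pattern over the 22 libraries was most like that of AMOT were HOXB9, LEF1, NRCAM, DDR2 and GLB1L3. Likeness is the root mean square difference of log2 values after each gene is centred on its own mean, and it was 0.47 for HOXB9, 0.58 for LEF1, 0.65 for NRCAM, 0.66 for DDR2 and 0.69 for GLB1L3. HOXB9 averaged 11.03 in T164A, 6.35 in R52C, 4.89 in NKX3.1 and 4.21 in Vector. As AMOT was chosen by its T164A values, high levels there follow from the choice. LEF1, NRCAM and GLB1L3 were under the floor on average in NKX3.1 and Vector, and GLB1L3 in R52C too. The genes most like YAP1 were RTN4, TRAPPC10, VPS11, RYK and SRSF2, with differences of 0.041 to 0.059. RTN4 averaged 11.92 in T164A, 11.25 in R52C, 11.98 in NKX3.1 and 12.23 in Vector.

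**Figure D5:**
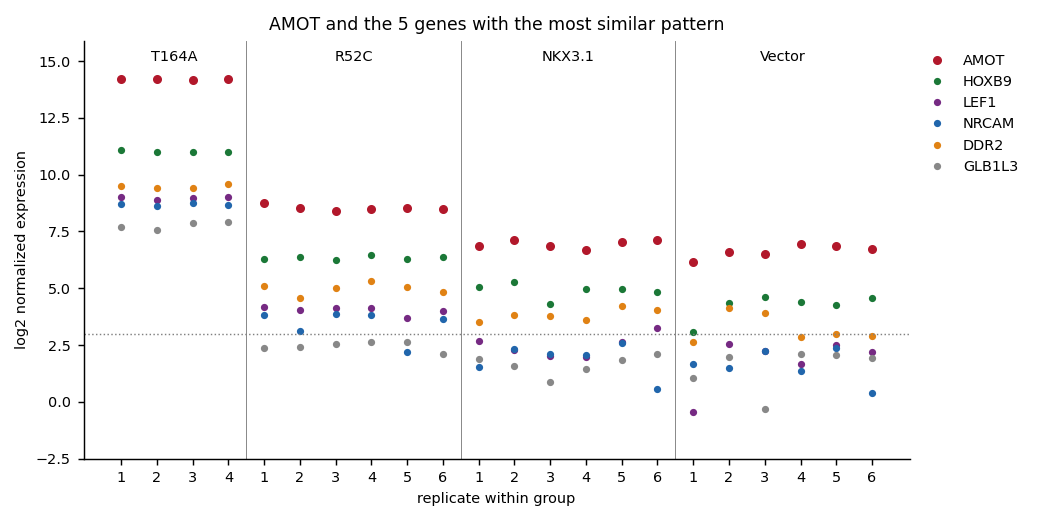
AMOT and the 5 genes most like it in every library (y axis: log2 normalized expression, x axis: replicate within group). The dotted line is the floor of 3. The 5 genes were chosen for their likeness to AMOT, so that they too are high in T164A is given by that choice. AMOT is at 14.18 or more in T164A and at 8.74 or less in the other groups.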

How the data were processed

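The authors deposited 1 table of log2 normalized expression for 22 libraries. Per the labels' protocols, poly-A RNA was prepared with the Illumina TruSeq kit and sequenced on a HiSeq2000. Per the submitters' processing notes, CASAVA 1.8.2, TopHat, Cufflinks and DESeq were used, and the builds GRCh37 and mm9 (a mouse genome) are listed, mm9 alone for the 4 T164A libraries. How values were normalized is not given in the sources used here. Linear values summed to 17026566 to 21261322 per library.

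Of 56299 entries, 3473 without a name and 4178 with a shared symbol were left out. Entries with a mean under 0 (10683) had a 99.9th percentile of 2.81, so 3 was taken as the floor. Genes above it in at least 4 libraries were tested with limma 3.58.1 (R 4.3.3), unscaled, with 4 groups in 1 fit, a variance trend and two-sided Benjamini-Hochberg adjustment over 21325 genes. A gene is called at an adjusted p under 0.05. For a bound, values under the floor in the lower group were raised to it. The main fit used unraised values, so a p-value beside a bound tests the unraised difference. No pair of libraries was identical. The fit was tested on simulated data. Whether counting used strand is not given in the sources used here, and antisense genes overlap several of the 10. In the table, those found were near or under the floor.

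All 10 genes are named throughout. From each pathway list at most 4 genes with the smallest adjusted p are named per comparison. The members and lists were chosen with earlier results of these data known. Some genes of these lists are not reported here.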

Additional observations from a re-analysis of the deposited data

How the results depend on the processing

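No paired analysis was possible because the labels give the groups no shared replicate numbers. Across 33 alternatives, 22 of which left out a library, the number of the 10 genes called stayed within 1.5 times the main number in all 6 comparisons. With a library left out it ranged from 8 to 8 in T164A against Vector, 9 to 10 in R52C against Vector, 8 to 10 in NKX3.1 against Vector, 5 to 6 in T164A against NKX3.1, 9 to 9 in R52C against NKX3.1 and 9 to 9 in R52C against T164A. Values for single genes were unchanged in 1926 cases, lost a call in 22, gained one in 20 and changed sign in 10. Unchanged means the same direction and side of the threshold. For AMOT in comparisons with T164A, which has no test, it means a shift under the larger SD of the 2 groups. AMOT shifted by more in 2 cases. These were 7.45 in T164A against NKX3.1 after quantile normalization and -5.36 in R52C against T164A at equal medians.

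The sign changes were all in differences near 0, and the cause was not tested. LATS2 in T164A against NKX3.1 ranged from -0.0343 to 0.0288 with a library left out, and CYR61 in the same comparison from -0.0360 to 0.0334. TEAD4 in R52C against NKX3.1 ranged from -0.0105 to 0.107, and was -0.0378 with R52C replicates 1 to 3 only. With every library at the same median it was 0.26 (limma adjusted p = 0.00697), and after quantile normalization 0.21 (adjusted p = 0.0285). The fall of TEAD4 in R52C against Vector was lost under both scalings, at -0.07 (adjusted p = 0.455) and -0.12 (adjusted p = 0.203).

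Shifting libraries to the same median moved R52C by 0.14 to 0.17 and T164A by -0.15 to -0.14. The share of called genes that were higher then changed to 35.6%, against 52.7% without it, in NKX3.1 against Vector, and to 58.1%, against 46.0% without it, in R52C against T164A. Depth is unknown, and values under the floor, such as CTGF in R52C, give bounds only.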
